A study of Oryza sativa with 16 samples.

Results

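A stretch of rice chromosome 4 from LOC_Os04g02960 to LOC_Os04g07160 was followed in panicles of DTY-IL and Swarna. Every locus in this stretch whose counts added up to 10 or more across the 15 libraries used was taken as a member, which gave 100 of the 33698 genes tested. The stretch itself was chosen by measured values, namely its many differences in count between DTY-IL and Swarna in both treatments. The genotype differences, and the interaction of genotype and drought that is computed from them, are therefore given below as a description, while the drought effect within each genotype was not part of the choice and was tested. The labels call Swarna, the recurrent parent, drought-sensitive and the introgression line drought-tolerant. DTY-IL is an F7 line and differs from Swarna by pieces of the genome of N22, a donor of drought tolerance. It is a single line, so that its values are those of 1 set of donor segments. Both genotypes were grown in greenhouse pots with 1 plant in each, either well-watered (control) or under reproductive-stage drought stress (RDS), in which soil moisture was held at 75% and then at 50% of field capacity. Whole panicles at the R3 stage were collected on day 12 of the stress and at the same stage from the control plants, with 4 separate biological replicates for each of the 4 groups.

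An introgression line is made by crossing a donor to a recurrent variety and returning the offspring to that variety, so that it keeps the genome of the variety except for a few donor segments. Within such a segment the line carries the donor alleles of neighbouring genes together. A gene there can differ in its regulatory sequence, in its coding sequence or in its presence, while genes outside the segments are shared with the recurrent parent. The count table and the RefSeq table used here did not pair the 100 members with gene names, and the later supplementary tables of the study were not used here, so the members are given by locus number and no role is stated for them. The study genotyped DTY-IL by SNPs and reported N22 introgressions on several chromosomes, chromosome 4 among them. Whether these loci lie in a donor segment was not tested here. The reads of both genotypes were counted against transcripts of the japonica variety Nipponbare, so a lower transcript level and a poorer match of an allele to that reference cannot be told apart in these counts. In whole panicles, fewer cells of a type and less RNA per cell also cannot be told apart.

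The 15 libraries used held between 24677520 and 31080042 counts, and the 100 members took 583.4 to 1017 CPM of them. The third replicate of Swarna control was excluded because it had been treated as an outlier by the study. Swarna control thus had 3 libraries and each other group 4. Within DTY-IL control, replicate 3 stood apart from the other replicates, with a chi-square per gene of 194 to 262 against them and of 51.9 to 56 among the other 3. All 13 floral organ MADS-box loci used to check the tissue were expressed, the lowest with a mean of 605 normalized counts. Their summed level was 54610 to 68930 normalized counts in DTY-IL control, 39550 to 50620 in DTY-IL under RDS, 63970 to 71020 in Swarna control and 34480 to 44700 in Swarna under RDS. Normalized counts below are counts scaled to the mean effective library size, so that they can be compared between libraries but, since they are not divided by gene length, not between loci.

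The stretch held few counts in panicles. Of the 381 loci listed between its ends, 26.2% reached the minimum of 10 counts, whereas 54.9% did among the chromosome 4 loci below it and 39.8% among those directly above it, up to LOC_Os04g11370. Across every listed locus of the genome, 60.4% reached the minimum. A further 114 loci of the stretch had 1 to 9 counts in total and 167, or 43.8% of those listed, had none in any of the 15 libraries, compared with 22.9% over the whole table. At the edge of the minimum, 3 loci were members with exactly 10 counts and 2 were left out with 9. The median member had a mean of 9.91 normalized counts, against 154.8 for all genes tested, 162.5 for the loci below and 18.4 for the loci above. A mean of at least 50 normalized counts was reached by 24 members, or 24%, and by 62.1% of all genes tested. By contrast, 6 members had means over 1000, and the 5 highest members carried 65.5% of all member counts.

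Of the 4 members with the highest mean counts, LOC_Os04g05050 is described with the drought effects. It was higher in DTY-IL by 0.54 in control and by 1.13 under RDS on the log2 scale and the genotypes overlapped in both treatments. The other 3 differed by at most 0.37 in size in either treatment. LOC_Os04g04020 ranged from 2463 to 3774 normalized counts in DTY-IL control, from 3175 to 3415 in DTY-IL under RDS, from 2608 to 3555 in Swarna control and from 3887 to 4638 in Swarna under RDS. LOC_Os04g06770 ranged from 2292 to 3255, from 3031 to 3354, from 2198 to 3002 and from 3022 to 3842 normalized counts in the same order of groups. For both loci the genotype ranges overlapped in control, and for LOC_Os04g06770 also under RDS. LOC_Os04g05010 lay between 1511 and 3864 normalized counts over all 15 libraries, with overlapping genotypes in both treatments.

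A different picture emerged for 17 members, whose DTY-IL and Swarna libraries did not overlap in control or under RDS and differed in the same direction in both. They are called separated below. They made up 17% of the members, compared with 2.37% of all genes tested, as the choice of the stretch implies. DTY-IL was the higher genotype at 8 of them (1.28% of all genes tested) and the lower at 9 (1.08% of all genes tested). No member was separated in opposite directions in the 2 treatments, which was seen for 0.457% of all genes tested. Separation in control alone was found for 17 further members and under RDS alone for 10, while 56 members were separated in neither treatment. In total, 34 members were separated in control, where 12.9% of all genes were, and 27 under RDS, where 13.3% of all genes were.

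**Figure D1:**
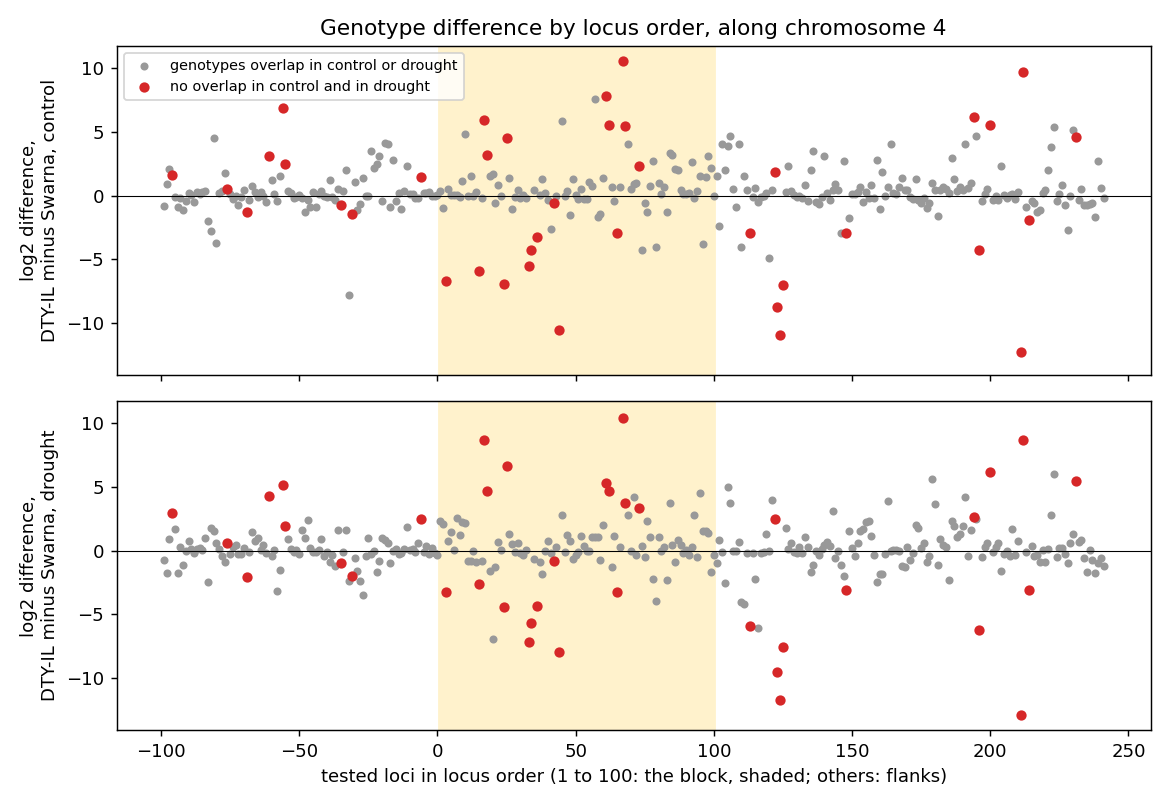
Difference between DTY-IL and Swarna (log2, vertical axis) in control (top) and under RDS (bottom) for tested loci of chromosome 4 in locus order (horizontal axis). The 100 members are shaded and red points mark loci whose genotypes did not overlap in either treatment. The 17 red points of the shaded stretch lie among its first 73 members, and red points recur on both sides of it.

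The separated members were spread over the lower and middle parts of the stretch. In 4 successive sets of 25 members each, from LOC_Os04g02960 upward, 6, 5, 6 and 0 members were separated. The first set held 3 that were higher and 3 that were lower in DTY-IL, the second set held 5 that were all lower, and the third held 5 that were higher and 1 that was lower. The last 27 members included none. At 4 places a pair of loci that follow each other in the table was separated in both treatments, namely LOC_Os04g03796 with LOC_Os04g03810, LOC_Os04g03890 with LOC_Os04g03910, LOC_Os04g04040 with LOC_Os04g04050 and LOC_Os04g05470 with LOC_Os04g05480. Within the pair of LOC_Os04g03890 and LOC_Os04g03910 the genotype differences ran in opposite directions, and in the other pairs in the same direction. LOC_Os04g05750 and LOC_Os04g05770, both higher in DTY-IL, were also neighbours among the members, with a listed locus below the minimum count between them.

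These values marked no sharp border at either end. Just below it, LOC_Os04g02900 and LOC_Os04g02910 differed between the genotypes by -0.03 and -0.02 on the log2 scale in control and by 0.19 and -0.17 under RDS. LOC_Os04g02920, the last tested locus before the stretch, differed by 0.02 and -0.38. Further down, LOC_Os04g02860 was separated, with differences of 1.47 and 2.48, and the 4 sets of 25 tested loci below the stretch held 2, 4, 2 and 1 separated loci. Inside the lower end, the genotypes of the first member, LOC_Os04g02960, overlapped in control but not under RDS. Those of LOC_Os04g02970 overlapped under RDS but not in control, and LOC_Os04g02980, the third, was separated in both treatments. At the upper end the last member, LOC_Os04g07160, ranged from 10.4 to 17.4 normalized counts in DTY-IL control and from 6.74 to 19.8 in Swarna control. Its neighbour inside the end, LOC_Os04g07150, stayed at or below 3.78, and directly above, LOC_Os04g07170, LOC_Os04g07200 and LOC_Os04g07260 stayed at or below 8.13 normalized counts in every library. Beyond these the separation resumed, with 5 of the 25 tested loci from LOC_Os04g07170 to LOC_Os04g08200. Separated loci made up 9% of the loci below the stretch, 9.22% of the loci above it and 3.75% of chromosome 4 outside it.

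The members higher in DTY-IL were led by loci that were close to absent from Swarna. LOC_Os04g05750 had 231, 187, 179 and 174 normalized counts in DTY-IL control and 177, 177, 169.8 and 185 in DTY-IL under RDS. It had 0 counts in all 7 Swarna libraries. Against a floor of 3 counts per library, the level in DTY-IL was at least 64.9-fold higher in control and at least 56.2-fold higher under RDS. Its 8 DTY-IL libraries lay close together, and the treatments overlapped.

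LOC_Os04g03796 had 638, 661, 574 and 582 normalized counts in DTY-IL control and 667, 618, 528 and 535 in DTY-IL under RDS, whereas Swarna had 11.2, 11.6 and 6.94 in control and 1.01, 0, 2.12 and 2.21 under RDS. Every DTY-IL library thus lay far above every Swarna library. The difference was 5.94 on the log2 scale in control. Under RDS, where Swarna had 5 counts in all, the ratio was 449 (95% counting interval 192 to 1380, Clopper-Pearson on the share of counts).

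Its neighbour LOC_Os04g03810 had 37.6, 43.6, 137 and 43.8 normalized counts in DTY-IL control, with replicate 3 far above the others, and 70.7, 59.3, 48.8 and 55.5 in DTY-IL under RDS. Swarna had 5.08, 6.74 and 8.92 in control and 2.02, 3.08, 1.06 and 2.21 under RDS, so that the genotypes differed by 3.22 and 4.72 on the log2 scale. LOC_Os04g03910 had 97.3, 96.4, 116 and 108 normalized counts in DTY-IL control and 65.5, 71.5, 69.0 and 57.6 in DTY-IL under RDS, and the replicates of each group agreed closely. Swarna reached 7.12, 2.89 and 2.97 in control and 0, 1.03, 1.06 and 0 under RDS. The genotype difference was 4.56 on the log2 scale in control, and under RDS, where Swarna had 2 counts in all, the ratio was 126 (95% counting interval 34.5 to 1050.0).

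The third set of 25 members held the pair of LOC_Os04g05470 and LOC_Os04g05480. LOC_Os04g05470 had 167, 177, 356 and 27.0 normalized counts in DTY-IL control and 29.7, 1.74, 3.18 and 26.2 in DTY-IL under RDS, while no Swarna library exceeded 1.06. Its replicates spread widely within DTY-IL. LOC_Os04g05480 stayed between 0.87 and 8.26 normalized counts in DTY-IL and was at 0 in all 7 Swarna libraries, and the level in DTY-IL control was at least 1.92-fold higher. The remaining members higher in DTY-IL were LOC_Os04g05770, at 3.18 to 22.5 normalized counts in DTY-IL and at most 1.10 in Swarna, and LOC_Os04g06100, at 9.45 to 38.2 in DTY-IL and at most 6.94 in Swarna.

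**Figure D2:**
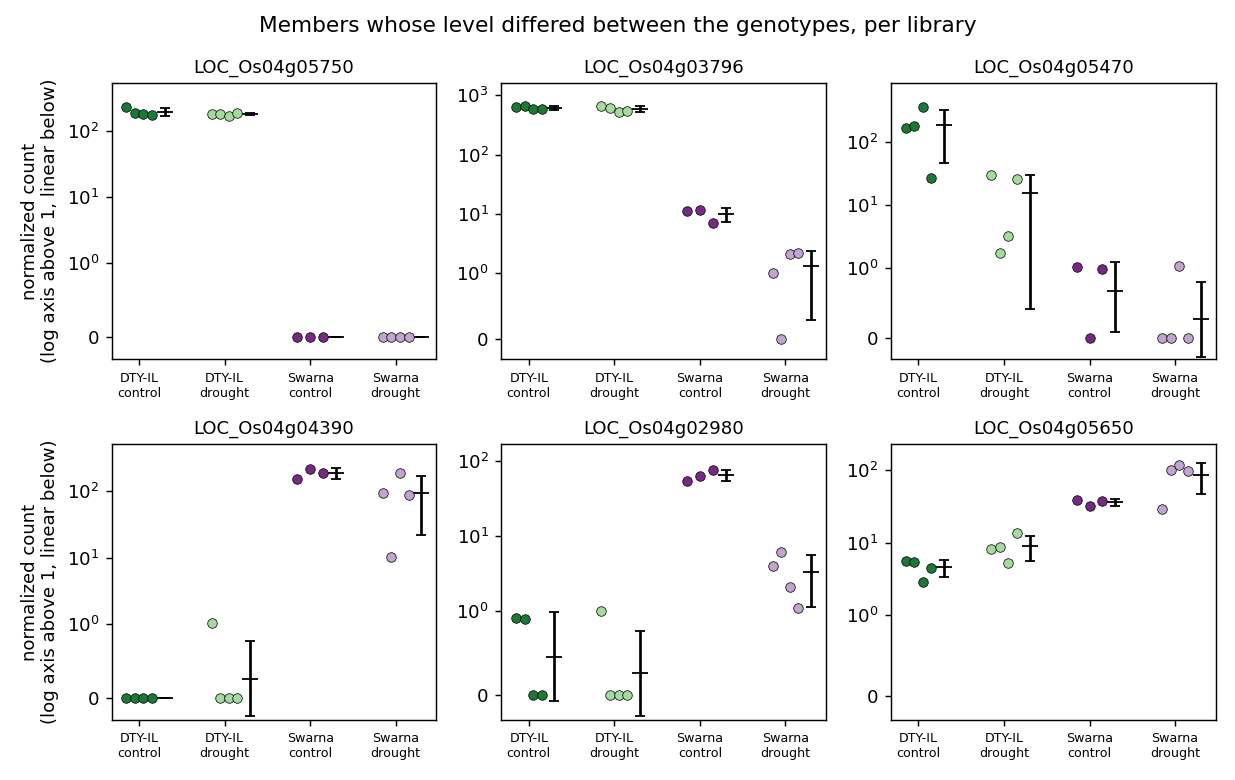
Normalized counts per library (vertical axis, logarithmic above 1 and linear below) of 6 separated members in the 4 groups, with the mean and SD beside the points. LOC_Os04g05750, LOC_Os04g03796 and LOC_Os04g05470 were higher in DTY-IL, and LOC_Os04g04390, LOC_Os04g02980 and LOC_Os04g05650 were higher in Swarna, with no overlap of the genotypes within either treatment.

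Among the members lower in DTY-IL, LOC_Os04g04390 was close to absent from DTY-IL. Swarna had 151, 219.6 and 190.3 normalized counts in control and 93.9, 10.3, 187 and 86.1 under RDS. DTY-IL had 0 in all 4 control libraries and 1.02, 0, 0 and 0 under RDS, which is a single count in 1 library of 8. Swarna control was at least 64-fold higher against the floor of 3 counts per library.

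LOC_Os04g02980 and LOC_Os04g03710 were expressed in well-watered Swarna above all. LOC_Os04g02980 had 54.9, 63.6 and 76.3 normalized counts in Swarna control, 4.04, 6.17, 2.12 and 1.10 in Swarna under RDS, and at most 1.02 in any DTY-IL library. LOC_Os04g03710 had 81.3, 33.7 and 86.2 in Swarna control, 7.07, 5.14, 1.06 and 1.10 in Swarna under RDS, and at most 2.84 in DTY-IL. Under RDS the gap between the genotypes at both loci was thus a matter of a few counts.

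The neighbours LOC_Os04g04040 and LOC_Os04g04050 were at 0 counts in all 8 DTY-IL libraries. In Swarna, LOC_Os04g04040 had 3.05, 4.82 and 8.92 normalized counts in control and 17.2, 14.4, 15.9 and 24.3 under RDS, which was at least 1.92-fold and at least 5.98-fold higher than DTY-IL. LOC_Os04g04050 had 3.05, 1.93 and 1.98 in Swarna control and 10.1, 4.11, 3.19 and 7.73 under RDS, at least 2.09-fold higher under RDS. Both were therefore low-count loci detected in Swarna alone in these 15 libraries. LOC_Os04g03890 lay between 5.14 and 32.3 normalized counts in Swarna, was at 0 in DTY-IL control and reached at most 1.74 in DTY-IL under RDS, so that Swarna control was at least 5.29-fold higher.

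The remaining 3 loci of the group exceeded 3 counts in at least 1 library of each genotype. LOC_Os04g05650 had 5.51, 5.46, 2.84 and 4.49 normalized counts in DTY-IL control and 8.19, 8.72, 5.31 and 13.6 under RDS, compared with 38.6, 31.8 and 37.7 in Swarna control and 29.3, 101.8, 117 and 98.3 under RDS. The difference was -2.94 and -3.25 on the log2 scale. LOC_Os04g04320 showed the smallest separated difference, -0.56 in control and -0.82 under RDS, with 247 to 325 normalized counts in DTY-IL control, 317 to 406 in DTY-IL under RDS, 393 to 510.5 in Swarna control and 536 to 664 in Swarna under RDS. LOC_Os04g04070 had 0.95 to 7.86 normalized counts in DTY-IL control and 28.7 to 71.2 in Swarna control, a difference of -3.22. Under RDS it had 1.02, 0, 0 and 2.09 in DTY-IL, 3 counts in all, and 31.3, 6.17, 22.3 and 12.1 in Swarna, which was 24.3 times as high (95% counting interval 7.97 to 121).

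**Figure D3:**
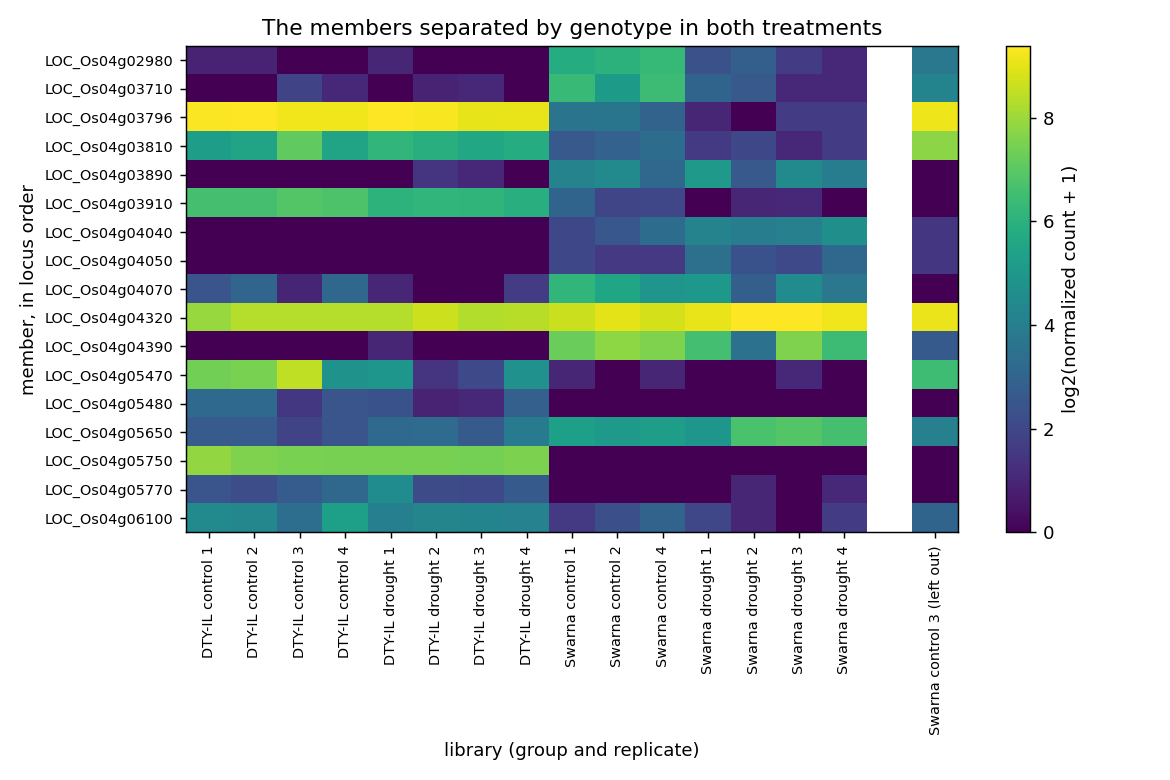
Level (colour, log2 of the normalized count plus 1) of the 17 separated members (rows, in locus order) in the 15 libraries used and, set apart at the right, in Swarna control replicate 3, which was left out. In no row do the genotypes overlap within a treatment, but some rows, such as LOC_Os04g02980 and LOC_Os04g03710, also drop within Swarna under RDS. The left-out library resembles DTY-IL at LOC_Os04g03796 (560 normalized counts) but Swarna at LOC_Os04g05750 (0).

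Many members were at the counting limit, meaning that none of a genotype's libraries held more than 3 counts. This held for 19 members in Swarna but not in DTY-IL (4.27% of all genes tested), for 11 in DTY-IL but not in Swarna (3% of all genes tested) and for 6 in all 15 libraries (2.77% of all genes tested). The shares over all genes were not matched for level, and the members had lower counts than most genes, so no excess is read from them. At 10 counts in place of 3, the number at the limit in DTY-IL alone was 7. Of the 17 separated members, 4 were at the limit in Swarna, 6 in DTY-IL and 7 in neither. Most of the other members at the limit in 1 genotype were weak in the other too. An exception among those that were not separated was LOC_Os04g05330, with 31.2, 21.8, 32.1 and 8.99 normalized counts in DTY-IL control but 0, 0, 0 and 5.23 in DTY-IL under RDS, and its genotypes overlapped under RDS. In control, where Swarna was at 0, DTY-IL was at least 7.92-fold higher, and within DTY-IL the locus fell under RDS (adjusted p = 0.0093 by edgeR). LOC_Os04g04400 had 2.75 to 12.3 normalized counts in DTY-IL control and 0 in every Swarna library, at least 2.35-fold higher in DTY-IL control. LOC_Os04g07140 and LOC_Os04g06900 reached 6.62 and 10.4 normalized counts in 1 library of DTY-IL control and at most 2.21 in Swarna. On the other side, LOC_Os04g03600 and LOC_Os04g06144 were at the limit in DTY-IL and reached at most 4.25 and 8.50 normalized counts in Swarna.

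The fit across all genes passed 14 members at an adjusted p of at most 0.05 and a log2 difference of at least 1 in control, where 1.1% of all genes passed. DTY-IL was higher at 7 of these (0.599% of all genes) and lower at 7 (0.502%). Under RDS it passed 18, where 3.36% of all genes passed, with DTY-IL higher at 10 (2.09%) and lower at 8 (1.26%). The median absolute genotype difference of the members was 1.002 on the log2 scale in control and 1.083 under RDS, against 0.29 and 0.37 over all genes tested. The stretch was chosen for these contrasts, so nothing is read from the counts or the medians.

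Swarna control replicate 3, which entered neither the choice of members nor the fit, lay on the Swarna side for part of the members only. Of the 34 members separated in control, it was inside or nearer to the Swarna range at 21 (61.8%) and inside or nearer to the DTY-IL range at 13. Among the other genes separated in control it lay on the Swarna side at 43.8%. By direction, it lay there at 64.7% of the members and 61.5% of the other genes that were higher in DTY-IL, and at 58.8% and 30.1% of those that were lower. At LOC_Os04g03796 it had 560 normalized counts, near the DTY-IL control range of 564 to 638 and far above the other Swarna control libraries at 6.72 to 11.4. At LOC_Os04g03810 and LOC_Os04g05470 it had 215 and 86.9 normalized counts, whereas the other Swarna control libraries did not exceed 8.64 and 0.99. At LOC_Os04g05750 and LOC_Os04g03910, by contrast, it had 0 counts, as low as or lower than the other Swarna control libraries. With this library in the fit, the log2 genotype difference in control was 2.06 for LOC_Os04g03796 and 0.17 for LOC_Os04g03810. The scaling of this comparison used all 16 libraries, so its values differ slightly from those above.

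Drought altered members in both genotypes, at shares near those of all genes. RDS changed 15 members in DTY-IL panicles, of which 4 rose and 11 fell (edgeR's quasi-likelihood test, adjusted p at most 0.05 and absolute log2 fold change of at least 1), where 19.8% of all genes tested changed, 7.46% rising and 12.3% falling. In Swarna panicles 29 members changed, of which 11 rose and 18 fell, where 29.5% of all genes changed, 11.9% rising and 17.6% falling. These shares were not matched for level. Among members with a mean of at least 10 normalized counts, a limit set after seeing the data, 18% changed in DTY-IL and 36% in Swarna. Among all genes at that level 22.5% and 33.5% changed, so no difference in share is read. Without DTY-IL drought replicate 3 the count in DTY-IL was 9, and without Swarna control replicate 2 the count in Swarna was 19. With Swarna control replicate 3 in the fit the count in DTY-IL was 5. The floral marker sum was lower under RDS in both genotypes, and its part in these changes was not tested.

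Among the members that fell in DTY-IL with a mean of at least 50 normalized counts, LOC_Os04g05470 fell most. Its lowest library in control (27.0) lay under its highest under RDS (29.7), and it changed by -3.58 on the log2 scale (SE 0.82, adjusted p = 0.00503 by edgeR). LOC_Os04g03860 had 80.8, 58.2, 61.4 and 36.0 normalized counts in DTY-IL control and 18.4, 17.5, 11.7 and 31.4 under RDS, with no overlap, a change of -1.58 (SE 0.37, adjusted p = 0.00588 by edgeR). In Swarna the same locus had 77.3, 75.1 and 108 in control and 53.5, 26.7, 73.3 and 42.0 under RDS and did not pass the test. With all 16 libraries in the fit, the falls of LOC_Os04g05470 and LOC_Os04g03860 in DTY-IL did not pass (adjusted p = 0.0927 and 0.128 by edgeR).

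LOC_Os04g03050 and LOC_Os04g05050, both with high counts, fell in both genotypes. LOC_Os04g03050 had 2000.4, 1559, 2082 and 1473 normalized counts in DTY-IL control and 971, 161, 169 and 266 under RDS. In Swarna it had 1928, 1584 and 1673 in control and 236, 37.0, 60.6 and 221 under RDS. Neither genotype's treatments overlapped, and the changes were -2.18 in DTY-IL (SE 0.61, adjusted p = 0.0143 by edgeR) and -3.64 in Swarna (SE 0.67, adjusted p = 0.000634).

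LOC_Os04g05050 had 5299, 3915, 9639 and 3776 normalized counts in DTY-IL control and 2729.6, 2195, 1930.3 and 1200.2 under RDS. In Swarna it had 4565, 3671 and 3449 in control and 1392, 673, 262 and 1346. All drought libraries lay below all control libraries of their genotype. The changes were -1.49 in DTY-IL (SE 0.45, adjusted p = 0.0204 by edgeR) and -2.08 in Swarna (SE 0.47, adjusted p = 0.00284). The call in DTY-IL was lost without DTY-IL control replicate 3 (adjusted p = 0.0636 by edgeR), DTY-IL drought replicate 3 (0.0518) or DTY-IL drought replicate 4 (0.0573). With all 16 libraries it was lost in DTY-IL (0.249) and in Swarna (0.163).

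**Figure D4:**
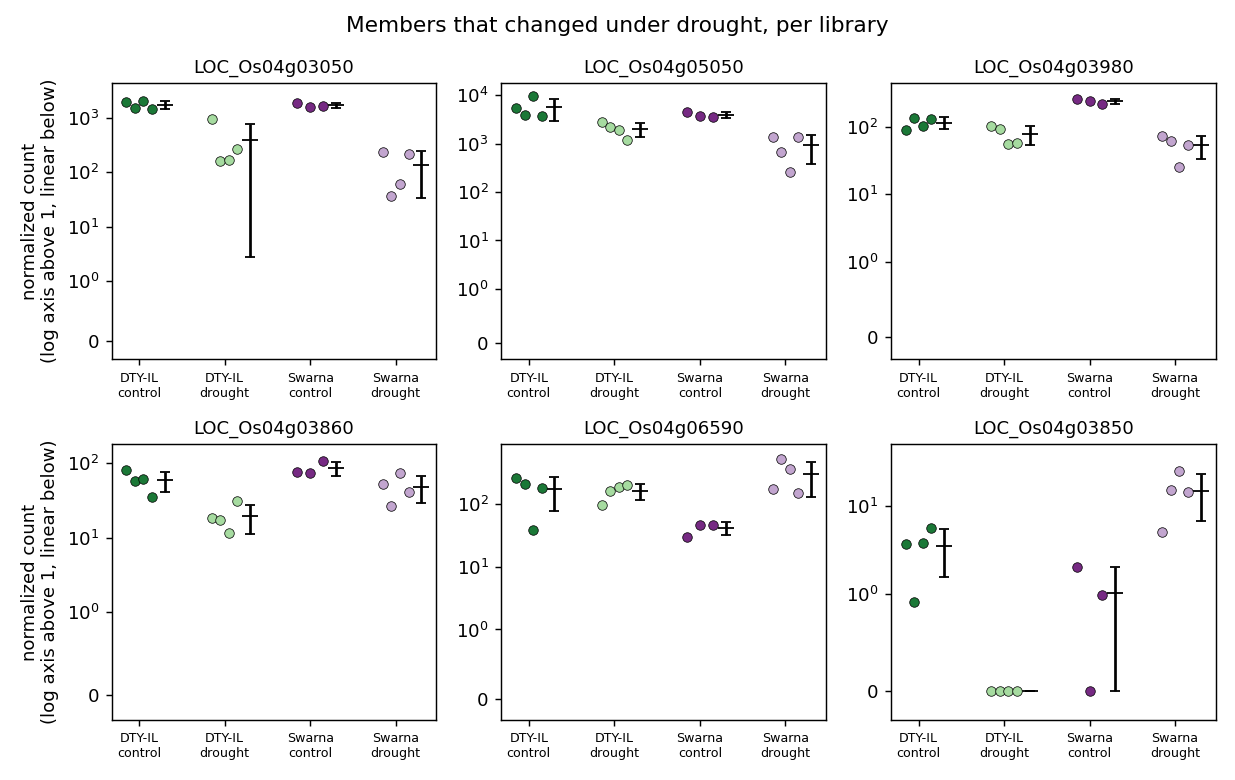
Normalized counts per library (vertical axis, logarithmic above 1 and linear below) of 6 members in the 4 groups, with the mean and SD beside the points. LOC_Os04g03050 and LOC_Os04g05050 fell under RDS in both genotypes, LOC_Os04g03980 fell and LOC_Os04g06590 rose in Swarna, and LOC_Os04g03860 fell in DTY-IL. LOC_Os04g03850 fell in DTY-IL and rose in Swarna in the libraries shown, which leave out Swarna control replicate 3.

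In Swarna, LOC_Os04g03980 had 260.2, 240.8 and 219 normalized counts in control and 72.7, 61.7, 25.5 and 54.1 under RDS, a change of -2.16 (SE 0.32, adjusted p = 0.000127 by edgeR). In DTY-IL it had 89.9, 136, 102 and 131 in control and 103, 94.2, 56.2 and 56.5 under RDS, and the treatments overlapped. Swarna control was thus the group that stood apart at this locus. With Swarna control replicate 3 in the fit the fall in Swarna did not pass (adjusted p = 0.0708 by edgeR). LOC_Os04g03796 fell in Swarna from the low level given above by 2.80 on the log2 scale (SE 0.42, adjusted p = 0.000135 by edgeR), while its 8 DTY-IL libraries lay between 528 and 661 normalized counts.

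LOC_Os04g06590 was the only member with a mean of at least 50 normalized counts that rose in Swarna. It had 30.5, 47.2 and 47.6 normalized counts in Swarna control and 178, 531, 363 and 153 under RDS, a change of 2.87 (SE 0.59, adjusted p = 0.00141 by edgeR). In DTY-IL it had 265, 214, 39.7 and 181 in control and 99.3, 161, 189.9 and 206 under RDS. DTY-IL control replicate 3 was the low library, and the other DTY-IL control libraries were at the level of Swarna under RDS. No member at that level rose in DTY-IL.

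Members at lower levels made up the rest of the drought changes. Among the members that passed the test, the 3 largest fitted rises in DTY-IL were at LOC_Os04g03210, LOC_Os04g04290 and LOC_Os04g03100. LOC_Os04g04290 was at 0 in all DTY-IL control libraries and reached at most 4.10 normalized counts under RDS. LOC_Os04g03210 had 0, 5.46, 0 and 8.99 normalized counts in DTY-IL control and 6.14, 210.3, 254 and 30.3 under RDS, and in Swarna it had 0 in all 3 control libraries and 2.02, 76.1, 25.5 and 6.62 under RDS. It rose in both genotypes (adjusted p = 0.0162 and 0.0286 by edgeR), with drought replicates that spread widely. LOC_Os04g03100 had 1.12 to 9.09 normalized counts in DTY-IL control and 8.19 to 70.0 under RDS, and 1.98 to 6.74 in Swarna control and 17.2 to 55.5 under RDS. It rose by 3.07 in DTY-IL (SE 0.70, adjusted p = 0.00522 by edgeR) and by 3.09 in Swarna (SE 0.79, adjusted p = 0.00607).

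The first members of the stretch fell together in Swarna. LOC_Os04g02960 had 25.4, 17.3 and 23.8 normalized counts in Swarna control and 3.03, 4.11, 2.12 and 2.21 under RDS. LOC_Os04g02970 had 67.1, 61.6 and 63.4 in Swarna control and 3.03, 5.14, 2.12 and 6.62 under RDS, and LOC_Os04g02980 is given above. The falls were 2.89, 3.89 and 4.21 on the log2 scale (adjusted p = 0.00284, 0.000481 and 6.2e-05 by edgeR). LOC_Os04g02990, the next member, fell in both genotypes, with changes of -2.84 in Swarna and -2.63 in DTY-IL (adjusted p = 0.0309 and 0.0319 by edgeR). In DTY-IL, LOC_Os04g02960 and LOC_Os04g02970 ran side by side, at 48.6 and 54.1 normalized counts in control replicate 1, 13.6 and 15.5 in replicate 2, 15.1 and 16.1 in replicate 3 and 39.3 and 42.7 in replicate 4. Whether these neighbours share reads was not tested, so their values are uncertain as values of separate genes. Their treatments overlapped in DTY-IL.

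**Figure D5:**
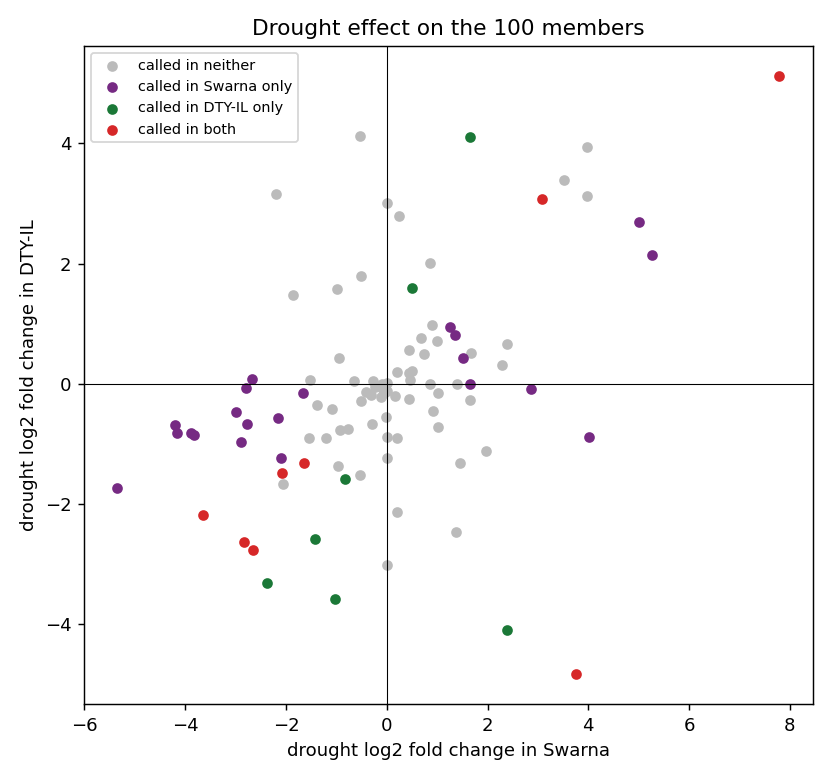
Log2 fold change under RDS in Swarna (horizontal axis) and in DTY-IL (vertical axis) of the 100 members, 1 point each, coloured by the genotypes in which the member passed the drought test. Of the 8 members that passed in both, 7 lie in the same direction and LOC_Os04g03850 lies at the lower right, with 3.76 in Swarna and -4.84 in DTY-IL, the latter a fitted value against libraries at 0 counts.

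In total, 36 members changed in at least 1 genotype, where 33.8% of all genes did, and 64 in neither. Both genotypes shared 8 members, where 15.5% of all genes changed in both. They were 53.3% of the members that changed in DTY-IL and 27.6% of those that changed in Swarna, against 78.2% and 52.5% over all genes. These shares were not matched for level, and no lesser sharing is read from the 8 members. The direction was the same for 7 (15.4% of all genes) and opposite for 1 (0.0326% of all genes). The exception was LOC_Os04g03850, a low-count locus with 3.67, 0.91, 3.78 and 5.62 normalized counts in DTY-IL control and 0 in all 4 DTY-IL libraries under RDS, but 2.03, 0 and 0.99 in Swarna control and 5.05, 15.4, 25.5 and 14.4 in Swarna under RDS. Under RDS the level in Swarna was at least 5.02-fold higher than in DTY-IL. The left-out Swarna control replicate 3 had 40 unscaled counts at LOC_Os04g03850, above the 5 to 24 of the Swarna libraries under RDS. The rise in Swarna therefore rests on leaving that library out. Of the 17 separated members, 2 fell in DTY-IL (LOC_Os04g04070 and LOC_Os04g05470), where 15.3% of all separated genes changed. In Swarna, where 24.1% of all separated genes changed, 5 of them fell (LOC_Os04g02980, LOC_Os04g03710, LOC_Os04g03796, LOC_Os04g03810 and LOC_Os04g03910) and 2 rose (LOC_Os04g04040 and LOC_Os04g05650). The median absolute drought change over the members was 0.82 in DTY-IL and 1.24 in Swarna on the log2 scale, against 0.63 and 0.84 over all genes tested. These medians were not matched for level, and the median member had 9.91 normalized counts against 154.8 for all genes tested. No stronger response to drought is therefore read from them.

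The interaction term, the drought change in DTY-IL minus that in Swarna, equals the genotype difference under RDS minus that in control. It is thus built from the values for which the stretch was chosen, and its values and counts are a description. By edgeR 0 members had an adjusted p of at most 0.05, where 0.0594% of all genes tested did, and 17 had an unadjusted p under 0.05, where 12.3% of all genes did. DESeq2 passed 5 members after adjustment, where 2.93% of the genes it gave an adjusted p passed, and 16 before adjustment, where 13.3% of all genes passed. These 5 were LOC_Os04g02970, LOC_Os04g03796, LOC_Os04g03980, LOC_Os04g06520 and LOC_Os04g06590. With a stricter filter on low counts edgeR passed 1 member, LOC_Os04g03796, where 0.107% of all genes kept by that filter passed.

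At LOC_Os04g03796 the interaction was 2.73 on the log2 scale (SE 0.47), a value that rests on the 5 counts of Swarna under RDS. In DTY-IL the drought range of this locus overlapped the control range, while in Swarna every drought library lay below every control library. LOC_Os04g06590 had an interaction of -2.96 (SE 0.75) and LOC_Os04g03980 one of 1.60 (SE 0.43), and at both of them Swarna control lay apart from the other Swarna libraries. At LOC_Os04g03850 the 4 DTY-IL libraries under RDS were at 0, so that no interaction value is given. LOC_Os04g06520, chosen after its values were seen, had 43.5 to 241 normalized counts in DTY-IL control, 26.6 to 83.8 in DTY-IL under RDS, 8.13 to 23.1 in Swarna control and 27.6 to 56.5 in Swarna under RDS.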

How the data were processed

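Panicle RNA-seq libraries of DTY-IL and Swarna under control and RDS were used. Per the study's methods, the authors trimmed reads with Trimmomatic and deposited estimated counts per gene, made with salmon (version 0.7.2) against the Nipponbare transcriptome of RGAP 7 and summed with tximport. The authors' own DESeq2 tables hold only fold changes and p-values of their contrasts and were not used. Count columns show a group and a replicate number without a pot, and were therefore assigned to groups.

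Estimated counts were rounded to whole numbers. Genes with at least 10 counts over 15 libraries were fitted with edgeR (version 4.0.16, R 4.3.3), TMM and the quasi-likelihood test, with 1 mean per group and Benjamini-Hochberg adjustment over 33698 genes. Ratios against groups of 2 to 5 counts carry a Clopper-Pearson interval. The script was tested on simulated data, with changes planted only in Swarna under RDS and only in genes with a mean of at least 50 counts. Members at lower counts and the other contrasts were not covered by that test. Alternatives used DESeq2 (version 1.42.0), RLE scaling, other filters, all 16 libraries and left-out replicates. Members, gene lists and tests were chosen with earlier results of these data known. Named members were the most abundant at the counting limit, the most different or most abundant members, the largest drought changes with a mean of at least 50, the smallest interaction p-values and loci at both ends. Other members named in the report were chosen after their values were seen. Bounds against 3 counts per library, and the Clopper-Pearson intervals on counts pooled over the libraries of a group, cover counting error only. They leave out the spread between replicates. Of the 100 members, 0 matched the RefSeq table.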

Additional observations from a re-analysis of the deposited data

Results flagged for a closer look

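Over the 34 named members, 70 groups of 4 libraries were examined for a library far from the others by Dixon's criterion, and 9 were flagged. The criterion flags about 1 in 20 groups by chance if values are normally distributed, which low counts need not be. A group at 0 in all but 1 library is always flagged, so no excess is read from the 9. In DTY-IL control, replicate 3 was the high library at LOC_Os04g03810 with 137 normalized counts (next library 43.8), at LOC_Os04g06900 with 10.4 (3.64) and at LOC_Os04g07140 with 6.62 (3.37). In the same group, replicate 1 was the low library at LOC_Os04g04320 with 247 (320) and the high library at LOC_Os04g05010 with 3150 (2210). In DTY-IL under RDS, replicate 1 was high at LOC_Os04g03050 with 971 (266) and at LOC_Os04g05770 with 22.5 (5.23), and replicate 4 was high at LOC_Os04g05330 with 5.23 (0). In Swarna under RDS, replicate 3 was high at LOC_Os04g06144 with 8.5 (0).

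Swarna control replicate 3, which was left out of the fit, was above the highest of the other Swarna control libraries at 4 members that were higher in DTY-IL. It had 560 normalized counts at LOC_Os04g03796 (highest other library 11.4), 215 at LOC_Os04g03810 (8.64), 86.9 at LOC_Os04g05470 (0.992) and 7.09 at LOC_Os04g06100 (6.72).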

How the results depend on the processing

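No result reversed under any alternative run. With all 16 libraries the count of members changed by RDS in DTY-IL was 5 and that of members passed for genotype was 8 in control and 8 under RDS. Fitting only the groups compared gave 9 for genotype in control. For the interaction, DESeq2 gave 5 members and the filterByExpr filter, which kept 59 members, gave 1. A limit of 10 counts gave 7 members at the limit in DTY-IL alone. Among the 50 members with a mean of at least 10 normalized counts, an alternative chosen after seeing the data, 9 changed in DTY-IL and 18 in Swarna, or 18% and 36%, against 22.5% and 33.5% of all genes at that level. Leaving out 1 replicate at a time gave 9 to 17 members for drought in DTY-IL, 19 to 31 for drought in Swarna, 0 to 0 for the interaction, 11 to 15 for genotype in control, 12 to 19 for genotype under RDS, 16 to 18 separated members, and 16 to 21 and 10 to 13 at the limit in Swarna and DTY-IL. Without DTY-IL control replicate 3, which stood apart, the drought counts were 13 and 31. DESeq2 gave no adjusted p for the interaction of 42 members. RLE scaling changed no count by over 1.5 times. Over the 23 values of named members, 465 alternatives were the same, 8 lost and 4 gained the call and 2 moved by more than the replicate SD. For drought and interaction values, the same meant direction and side of the threshold, with a missing adjusted p taken as not passing. For genotype values it meant direction and a move within the replicate SD, without a threshold. No paired analysis was possible because the count columns carry numbers that are not tied to pots. Where a group was at 0 counts, depth allows a bound on the fold only.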
